A study of Mus musculus with 6 samples.

Results

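The blood-testis barrier divides the seminiferous epithelium into a basal compartment, open to blood and lymph, and a sealed compartment in which meiosis and sperm formation proceed. It is built by neighbouring Sertoli cells, the somatic nurse cells of the tubule, which join tight junctions, adherens junctions, gap junctions and desmosomes in a single belt near the tubule wall. Claudins and occludin form the seal, scaffold proteins tie it to actin, and the belt opens and closes as germ cells pass through it.

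The measurements concern 9 genes of this barrier: the claudins Cldn3, Cldn5 and Cldn11, occludin (Ocln), the scaffold ZO-1 (Tjp1), the junctional adhesion molecules JAM-A (F11r) and JAM-C (Jam3), connexin 43 (Gja1) and N-cadherin (Cdh2). The rule took them by symbol, as genes of the Sertoli cell junctions with a named probe, and used no value of the contrast. The list was nevertheless written with earlier results of these data known. They had 10 probes on the array, of 45281 in all. A probe was kept where at least 2 of the 5 mice had signal above the negative controls, that is a detection p below 0.05. By this rule 7 of the 10 probes and 7 of the 9 genes were kept, among 20901 probes and 11755 genes.

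The study asked what JQ1, a small-molecule inhibitor of BET bromodomain proteins, among them the testis protein BRDT, does to gene expression in the testis. All mice were male, of the strain C57/129, and carried no genetic change named in the labels. The 3 JQ1 mice received 50 mg/kg each day for 6 weeks, starting at an age of 6 weeks and ending at 12, and the 2 control mice received vehicle over the same time. Whole testis RNA was hybridised to Illumina bead arrays, with 2 arrays, a technical pair, for control mouse 1. Their mean counted as 1 mouse, so that all p-values rest on 2 mice against 3. In whole testis, fewer cells of a type and less RNA per cell cannot be told apart.

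Between 17799 and 20326 probes were detected per array, and the median raw signal lay between 101.8 and 142.2. The lowest correlation between arrays of the same group was 0.985 and the highest between groups was 0.966. Levels below are background-corrected, quantile-normalized signals on the log2 scale, and changes are JQ1 minus control on that scale with the SE of the linear model. A gene was said to pass at a Benjamini-Hochberg adjusted p under 0.05 over all kept probes, and was called where it also changed at least 2-fold.

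The promoters of the 4 genes with the largest changes, described below, are printed to show the sequence just before their start sites. RefSeq promoter windows were read for 7 of the 9 genes, in 8 windows since Ocln had more than 1. No window was read for Cdh2 or Jam3, so the counts below leave their promoters out. The 250 bases upstream of the start were read from build GRCm38.p6, all on the plus strand here: chr3:31149670-31149919 for Cldn11, chr16:18776597-18776846 for Cldn5, chr1:171437311-171437560 for F11r and chr10:56377050-56377299 for Gja1. Capitals mark matches on either strand to CCAAT (the CCAAT box), GGGCGG (the GC box), TGANTCA (the AP-1 motif), TATAAA (the TATA box) and GATAA (the GATA motif), none of which overlapped another.
Cldn11: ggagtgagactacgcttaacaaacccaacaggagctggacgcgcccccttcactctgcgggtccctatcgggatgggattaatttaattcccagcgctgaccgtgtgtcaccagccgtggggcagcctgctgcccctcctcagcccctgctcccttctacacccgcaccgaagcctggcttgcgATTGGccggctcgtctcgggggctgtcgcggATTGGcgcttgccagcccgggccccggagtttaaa
Cldn5: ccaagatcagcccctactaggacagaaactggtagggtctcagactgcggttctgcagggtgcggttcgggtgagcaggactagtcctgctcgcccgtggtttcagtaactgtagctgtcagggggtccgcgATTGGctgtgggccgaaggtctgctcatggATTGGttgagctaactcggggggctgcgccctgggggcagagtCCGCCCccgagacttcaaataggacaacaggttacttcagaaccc
F11r: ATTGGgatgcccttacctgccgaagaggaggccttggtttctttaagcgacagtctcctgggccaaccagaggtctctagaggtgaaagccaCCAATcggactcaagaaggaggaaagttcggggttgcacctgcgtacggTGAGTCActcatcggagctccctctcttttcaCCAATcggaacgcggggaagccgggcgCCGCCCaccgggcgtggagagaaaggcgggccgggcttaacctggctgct
Gja1: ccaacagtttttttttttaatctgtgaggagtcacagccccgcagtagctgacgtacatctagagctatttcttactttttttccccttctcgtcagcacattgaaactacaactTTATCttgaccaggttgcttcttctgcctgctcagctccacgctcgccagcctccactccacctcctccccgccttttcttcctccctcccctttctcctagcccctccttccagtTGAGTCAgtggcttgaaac
The Cldn11 window held 2 CCAAT boxes, both on the minus strand, whose first bases lay 66 and 35 bases before the start. The Cldn5 window held 2 (118 and 88 bases before the start) and a GC box. The F11r window held 3 CCAAT boxes, a GC box and an AP-1 motif, and the Gja1 window an AP-1 motif 19 bases and a GATA motif 135 bases before the start. At least 2 CCAAT boxes were present in 3 of the 8 windows, against 10.1% of the 32851 mouse windows of the same length. A CCAAT box was found in 4 of the 8 and in 33.8% of all windows, and a GC box in 6 of the 8 and in 32.7%. An AP-1 motif was found in 2 of the 8 and in 6.75% of all windows, and a GATA motif in 2 of the 8 and in 22.6%. A TATA box was found in 12.4% of all windows. No enrichment was tested. The 8 windows held no TATAAA. These matches are letters in a window and not measured binding sites.

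Of the 7 genes kept, 5 rose with JQ1 when the arrays were normalized on all probes, and none of the 7 passed as higher when the arrays were instead set at equal signal of Sertoli cell markers, a scaling under which 1.48% of all genes passed as higher and 84.0% as lower. With all probes normalized, the sealing claudin Cldn11 and the gap junction protein Gja1 were called, at 2.77-fold and 2.15-fold higher. Cldn5, F11r and Ocln passed below 2-fold, and Tjp1 and Cdh2 did not pass. Of all 11755 genes, 25.0% were higher, 21.6% were lower, 8.43% were called higher and 2.84% called lower. The junction genes had 0 of 7 lower. Ocln passed the filter through the JQ1 mice alone. Among the 6 genes detected in all 5 mice 4 rose, against 26.9% of the 9794 genes detected in all 5. The median change of the 7 was 0.85, against 0.0004 over all genes. In 5 of the 7 every JQ1 mouse lay above both control mice, as did 33.9% of all genes.

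**Figure D1:**
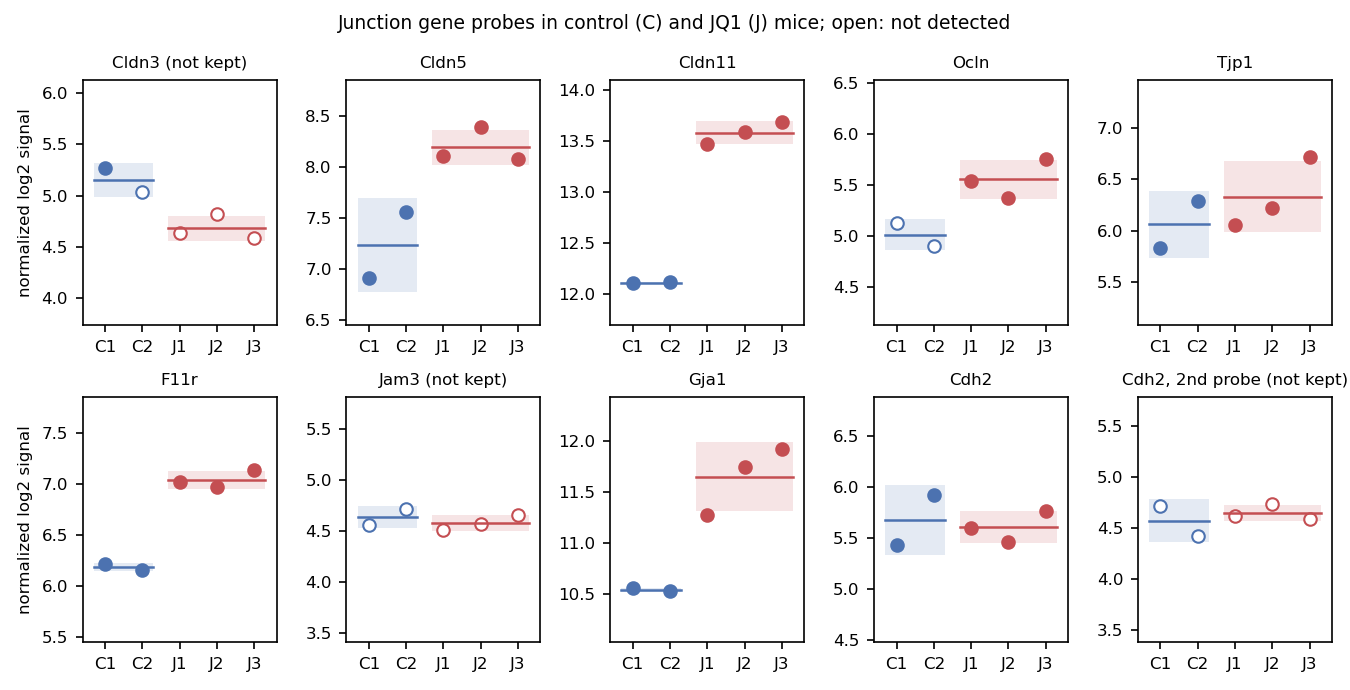
Normalized log2 signal (vertical axis, the same span of 2.4 in every panel) of the 10 junction gene probes in control mice 1 and 2 (C1, C2) and JQ1 mice 1 to 3 (J1, J2, J3). Lines are group means and bands 1 SD, filled points were detected and open points were not. The groups lie apart for Cldn5, Cldn11, Ocln, F11r and Gja1, with JQ1 above. They also lie apart for Cldn3, with JQ1 below, on a probe near background that was not kept. They overlap for Tjp1, Jam3 and both Cdh2 probes.

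Claudin 11 forms the tight junction strands between Sertoli cells, and mice that lack it are sterile. The log2 level of Cldn11 was 12.11 and 12.12 in the control mice and 13.47, 13.59 and 13.69 in the JQ1 mice. Every JQ1 mouse lay more than 1 log2 unit above both controls, which differed from each other by far less than that. The change was 1.47 ± 0.11 (SE), with a 95% interval of 1.23 to 1.71 and an adjusted p of 6.02e-08 by limma, and lay at the 97.9th percentile of all changes. On the raw scale too, every JQ1 array was brighter than every control array, at 5290.1 and 5958.8 on the 2 arrays of control mouse 1, 4026.4 in control mouse 2 and 10108.7, 10882.7 and 11895.4 in the JQ1 mice.

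Connexin 43, encoded by Gja1, couples Sertoli cells to each other and to germ cells through gap junctions. Gja1 stood at a log2 level of 10.56 and 10.53 in the control mice and 11.27, 11.75 and 11.92 in the JQ1 mice. The groups did not overlap, and JQ1 mouse 1 stood below the other JQ1 mice. The change of Gja1 was 1.11 ± 0.16, with a 95% interval of 0.78 to 1.43 and an adjusted p of 2.23e-05 by limma. Without JQ1 mouse 3 it was 0.97, past the test but under 2-fold.

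Claudin 5 is the main claudin of vascular endothelium, and in the mouse testis it is also found at Sertoli cell junctions. The log2 level of Cldn5 was 6.91 and 7.56 in the control mice and 8.11, 8.39 and 8.08 in the JQ1 mice. All JQ1 mice were above both controls, but the controls lay further apart than the JQ1 mice did. The change was 0.96 ± 0.19 (1.94-fold, 95% interval 0.56 to 1.36, adjusted p = 0.000508 by limma). It was 0.63 without control mouse 1 and 1.28 without control mouse 2. Without background correction it was 0.67 and passed. On raw signal with no correction or normalization it was 0.63 and did not pass (adjusted p = 0.07 by limma).

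JAM-A, encoded by F11r, is an adhesion molecule of tight junctions that is present on epithelial, endothelial and blood cells. F11r had log2 levels of 6.22 and 6.16 in the control mice and 7.02, 6.97 and 7.14 in the JQ1 mice. Both groups were tight and did not overlap. The change was 0.85 ± 0.17 (1.80-fold, 95% interval 0.49 to 1.22, adjusted p = 0.000686 by limma). Its size varied with the background step. It was 0.45 without background correction and 0.63 with an offset of 50, and passed in both. On raw signal with no correction or normalization it was 0.39 and did not pass (adjusted p = 0.264 by limma).

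Occludin spans the membrane at tight junctions, and male mice without it develop testicular atrophy. The log2 level of Ocln was 5.13 and 4.91 in the control mice, where it was not well above background in either, and 5.55, 5.37 and 5.75 in the JQ1 mice, where it was detected in all. Against the lowest detected signal this is at least 1.22-fold higher. The fitted change was 0.54 ± 0.20 with an adjusted p of 0.0382 by limma. Ocln passed as higher in only 9 of 21 other settings, and its adjusted p by limma reached 0.19 when 1 mouse was left out.

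ZO-1, encoded by Tjp1, is the scaffold that links claudins and occludin to the actin cytoskeleton. Tjp1 was at a log2 level of 5.82 and 6.29 in the control mice and 6.05, 6.22 and 6.72 in the JQ1 mice. The groups overlapped, with only JQ1 mouse 3 above both controls. The change was 0.27 ± 0.22 (95% interval -0.19 to 0.73, adjusted p = 0.325 by limma).

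N-cadherin, encoded by Cdh2, is the cadherin of the Sertoli cell adherens junction and is also carried by germ cells. The log2 level of Cdh2 was 5.43 and 5.92 in the control mice and 5.60, 5.46 and 5.76 in the JQ1 mice. All JQ1 values lay between the controls. The change was -0.07 ± 0.21 (95% interval -0.50 to 0.36, adjusted p = 0.81 by limma). In control mouse 1 the probe was detected on 1 of the 2 arrays, and the second Cdh2 probe was detected in no mouse.

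Claudin 3 joins newly forming barrier junctions in the mouse, and JAM-C is carried by Sertoli cells and by spermatids, whose polarisation requires it. The log2 level of Cldn3 was 5.27 and 5.04 in the control mice and 4.64, 4.82 and 4.59 in the JQ1 mice, and its probe was detected only on 1 array of control mouse 1, at a detection p of 0.0139. JAM-C (Jam3) lay between 4.51 and 4.71 and was detected on no array. Both probes were therefore at or near background and their genes were not tested in the fit.

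The 3 genes with profiles most like that of Cldn11 over the 5 mice were Sowahd, Slc30a2 and Aqp8, an aquaporin. After the control mean was subtracted they differed from Cldn11 by a root mean square of 0.018, 0.029 and 0.041 log2 units, the smallest among 1187 called genes. For Cdh2, the gene that changed least, Anxa7, Cnot6l and Cacfd1 were nearest, at 0.034, 0.041 and 0.046 among 9778 genes detected in all 5 mice. The 2 arrays of control mouse 1 differed by an SD of 0.28 over kept probes, more than any of these distances. With so many genes and 5 mice, near matches are likely to occur, so no shared function is drawn from them.

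Markers of the Sertoli cell moved with the junction genes. Of 20 tested Sertoli cell markers 16 rose, 14 were called and none fell, with a median change of 1.28. Over all genes 25.0% rose, 21.6% fell and 8.43% were called higher. The transcription factor Sox9 rose by 1.70 and the 2 brightest markers, Aard and Defb19, by 1.40 and 1.22. Their summed linear signal was 26692.9 to 29374.6 in the control mice and 59297 to 72766.6 in the JQ1 mice. Gata4, Dmrt1, Amh and Krt18 did not pass the filter. In the same arrays 7 of 12 pachytene spermatocyte markers and 3 of 20 spermatid markers fell and none of either rose, with medians of -0.40 and -0.15. The number of spermatid markers that fell is not above the share of all genes that fell. Of 11 spermatogonia markers 6 rose and none fell, with a median of 0.44. All 6 Leydig cell markers (median 1.14) and 7 of 8 macrophage markers (median 0.92) rose. Of 9 peritubular and stromal markers 4 rose and 1 fell (median 0.34), and neither of the 2 tested epididymis markers passed (median -0.20). These directions are relative to all probes, and the part of cell composition in the changes of the junction genes was not tested.

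Each junction gene was next set against the Sertoli cell signal of the same mouse, which lay 0.98, 1.22 and 1.24 log2 units above the control mean in JQ1 mice 1, 2 and 3. This scaling lowered the median change of all genes to -1.14. Relative to the mean of the 20 markers, Cldn11 was 3.53 and 3.41 in the control mice and 3.85, 3.73 and 3.80 in the JQ1 mice, a difference of 0.32. The groups did not overlap, and the exact two-sided permutation p was 0.1, the smallest that 2 against 3 mice can give. Gja1 was 1.97 and 1.82 in the control mice and 1.65, 1.88 and 2.04 in the JQ1 mice. These overlapped, and the difference of -0.04 had an exact p of 1. Cldn5 differed by -0.19 (exact p = 0.6) and F11r by -0.29 (exact p = 0.2).

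Tjp1 and Cdh2 lay lower relative to the Sertoli cell signal, with differences of -0.87 and -1.21, each with an exact p of 0.1. For Ocln the measured difference was -0.60, but neither control mouse had a detected signal, so its control level is only an upper limit and no direction is drawn. Cdh2 lay at -3.15 and -2.79 relative to the markers in the control mice and at -4.02, -4.41 and -4.12 in the JQ1 mice, with no overlap. In the fit over all kept probes at equal Sertoli marker means, Cldn11 did not pass (change 0.32, 95% interval -0.03 to 0.68, adjusted p = 0.0796 by limma), nor did Gja1 (interval -0.41 to 0.33), Cldn5 (-0.62 to 0.25) or F11r (-0.74 to 0.15). Tjp1 (adjusted p = 0.000891 by limma) and Cdh2 (1.76e-05) passed as lower, as did the measured values of Ocln (0.0185). Since 84.0% of all genes passed as lower at this scaling, 3 of 7 is not a result about the junction genes. These 3 had signals near background, and the part of the offset of 16 added in background correction was not tested. On the authors' own intensities, also set at equal Sertoli marker means, Tjp1 at -1.04 and Cdh2 at -1.42 passed as lower and Ocln at -0.23 did not. At that setting 9112 of all 11755 genes passed as lower. With 7 genes, 5 mice and unequal brightness, the order of these values is a description.

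**Figure D2:**
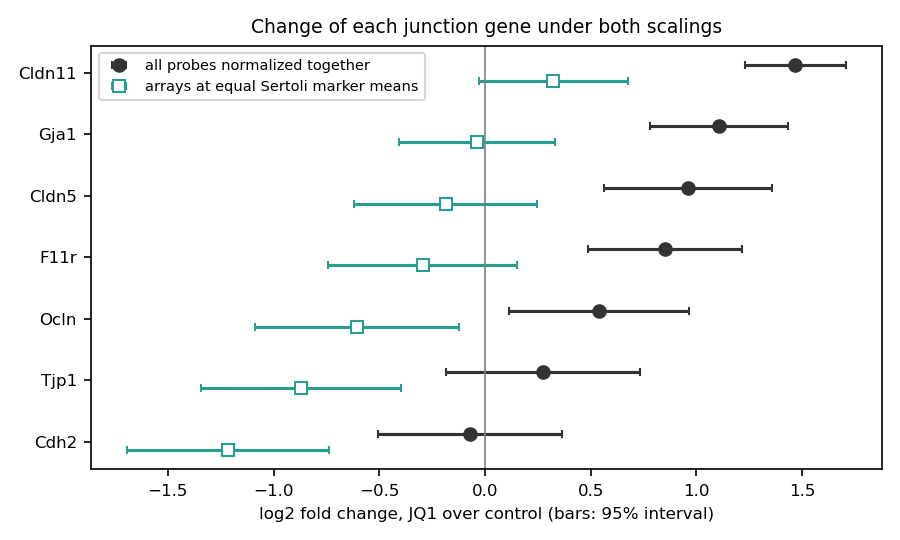
Log2 fold change of JQ1 over control (horizontal axis) for the 7 kept junction genes, with 95% intervals. Circles come from arrays normalized on all probes, where 5 of 7 passed as higher, and squares from the same arrays set at equal Sertoli marker means, where 0 passed as higher and 3 as lower, against 84.0% of all genes as lower. Ocln was not detected in the control mice.

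Cldn5 also belongs to endothelium, so endothelial markers were read beside it. Of 16 tested, 4 rose, 1 fell and 11 did not pass, with a median change of 0.19. Of all genes 25.0% rose and 21.6% fell, so the number that rose is no more than the share of all genes. The endothelial cadherin Cdh5 was at 0.21 and did not pass, and Pecam1 was detected in neither control mouse and in 2 of the 3 JQ1 mice. Of the 2 brightest, Egfl7 was at 0.01 and Robo4 rose by 3.02. The summed linear signal of the list was 1497.57 to 1666.19 in the control mice and 2251.36 to 2495.33 in the JQ1 mice. This sum includes Robo4 and is not the change of a typical gene of the list. The part of endothelial RNA in the rise of Cldn5 was not tested.

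Other structural genes of these junctions moved in both directions. Of 11 other claudin family genes tested, 3 rose and 1 fell, against 25.0% and 21.6% of all genes, with a median of -0.36. Without control mouse 1 only 1 rose, and without JQ1 mouse 1 the number called higher was 3 in place of 1. Without control mouse 2, 2 fell and 2 were called higher, and of the 7 detected in all 5 mice 1 rose and 1 fell. Cldn23 rose by 2.10 and was called, from 5.26 and 4.76 in the control mice, with 1 of 2 detected, to 7.37, 6.38 and 7.59. Without background correction 0 of the 11 were called higher. Cldn10 rose by 0.84. Cldn4 was at least 1.05-fold higher, since neither control mouse had a detected signal. Cldnd2, the brightest of the list, fell by 0.68. The names of Cldn10 and Cldnd2 follow from their brightness, and Cldn4 was named after its value was seen.

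Among tight junction scaffolds, receptors and polarity proteins, 14 genes were tested. Of these 6 fell, 1 rose and 7 did not pass, with none called and a median of -0.36. Without control mouse 2 only 3 fell and 1 was called higher, without JQ1 mouse 2 4 fell, and with the mean over each gene's probes 5 fell and 3 rose. Over all genes 21.6% fell and 25.0% rose. The 2 brightest were Ybx3, a DNA- and RNA-binding protein that docks at ZO-1, which fell by 0.64, and paracingulin (Cgnl1), whose brightest probe fell by 0.82. The gene that rose was Esam (0.87), an adhesion molecule of endothelium, named after its value was seen.

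The basal ectoplasmic specialization is the actin-backed adherens junction particular to Sertoli cells. The list for it also held genes of adherens junctions in general and of the germ cell side, and 24 of its genes were tested. Of these 11 rose, 4 fell and 9 did not pass, with 6 called higher, 1 called lower and a median of 0.41. Of all genes 25.0% rose, 21.6% fell, 8.43% were called higher and 2.84% called lower. Plekha7, among the 11, was detected in neither control mouse and passed the filter through the JQ1 mice alone. In the fit over genes detected in all 5 mice, 11 of 22 rose and 5 fell. Of all 9794 genes in that fit, 26.9% rose and 2441 fell. Without background correction, and also with an offset of 50, 4 of the 24 were called higher and 0 lower. The number called lower was 0 without JQ1 mouse 3 and 2 without JQ1 mouse 1 or without control mouse 2. The largest rises were in Zyx (1.75), encoding the actin-associated zyxin, Ctnna1 (1.54), the catenin that ties cadherins to actin, Lamc3 (1.17), a laminin chain, and Nectin2 (1.12), an adhesion receptor of Sertoli cells. Ctnna1 was 10.20 and 10.47 in the control mice and 11.69, 11.85 and 12.08 in the JQ1 mice, and Nectin2 was 9.66 and 9.74 against 10.60, 10.78 and 11.07. Neither gene overlapped between groups. Lamb3, a laminin chain known in the rat from the junction with spermatids, was called lower at -1.09, from 7.60 and 7.58 to 6.74, 6.53 and 6.24. Nectin3, the spermatid partner of nectin 2 in the mouse, fell by 0.47.

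Few gap junction and desmosome genes other than Gja1 passed. Many were dim: 5 of the 10 connexins and pannexins and 4 of the 6 desmosome genes were detected in all 5 mice. The summed linear signal of the 10 was 474.2 to 537.04 in the control mice. For genes near background a change could go unseen. Of 10 connexins and pannexins tested, 1 rose (Panx1, 0.72), 1 fell (Panx3, -0.50) and 8 did not pass, with a median near 0. The fall did not pass when any 1 mouse was left out, nor did the rise without control mouse 1. The brightest, Gja6, was at 0.31 with an adjusted p of 0.164 by limma. Of 6 desmosome genes none passed, although 1 fell without control mouse 2, and the 2 brightest, the plakophilins Pkp4 and Pkp2, were both at 0.24.

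Of 23 regulators of the barrier tested, 16 rose, 1 fell and 6 did not pass, with 6 called higher and a median of 0.72, against 25.0% of all genes that rose. Il1a, Fyn and Wnt5a, which are among the 16, were detected in neither control mouse and passed the filter through the JQ1 mice alone. Among the 19 regulators detected in all 5 mice 13 rose, against 26.9% of such genes. Only 1 of the 23 was called higher without background correction, where 429 of all 11755 genes were. With an offset of 50 it was also 1, against 632 of all genes. With the mean over each gene's probes 12 rose, against 2818 of all genes. The number that fell was 2 in place of 1 without control mouse 2 or without JQ1 mouse 1, and 4 were called higher without control mouse 1. Timp2, an inhibitor of matrix proteases, rose by 1.65, Fshr, the receptor through which FSH acts on Sertoli cells, by 1.34, and the protease gene Mmp2 by 1.17. Tgfb3, a cytokine that loosens the barrier in rat Sertoli cells, rose by 1.09, from 6.29 and 6.08 to 7.25, 7.30 and 7.27, and its receptor Tgfbr2 by 1.13. For the kinase gene Fyn, which neither control mouse showed above background, the rise was at least 1.81-fold. Rai14, an actin-binding protein known in the rat from the ectoplasmic specialization, fell by 0.63. At equal Sertoli marker means, 1.48% of all genes passed as higher and 84.0% as lower. There the counts passing as higher and lower were 1 and 8 for the claudins and 0 and 13 for the scaffolds. For the ectoplasmic specialization and adherens junction list they were 2 and 14. They were 0 and 9 for the gap junction genes, 0 and 6 for the desmosome genes and 1 and 12 for the regulators.

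**Figure D3:**
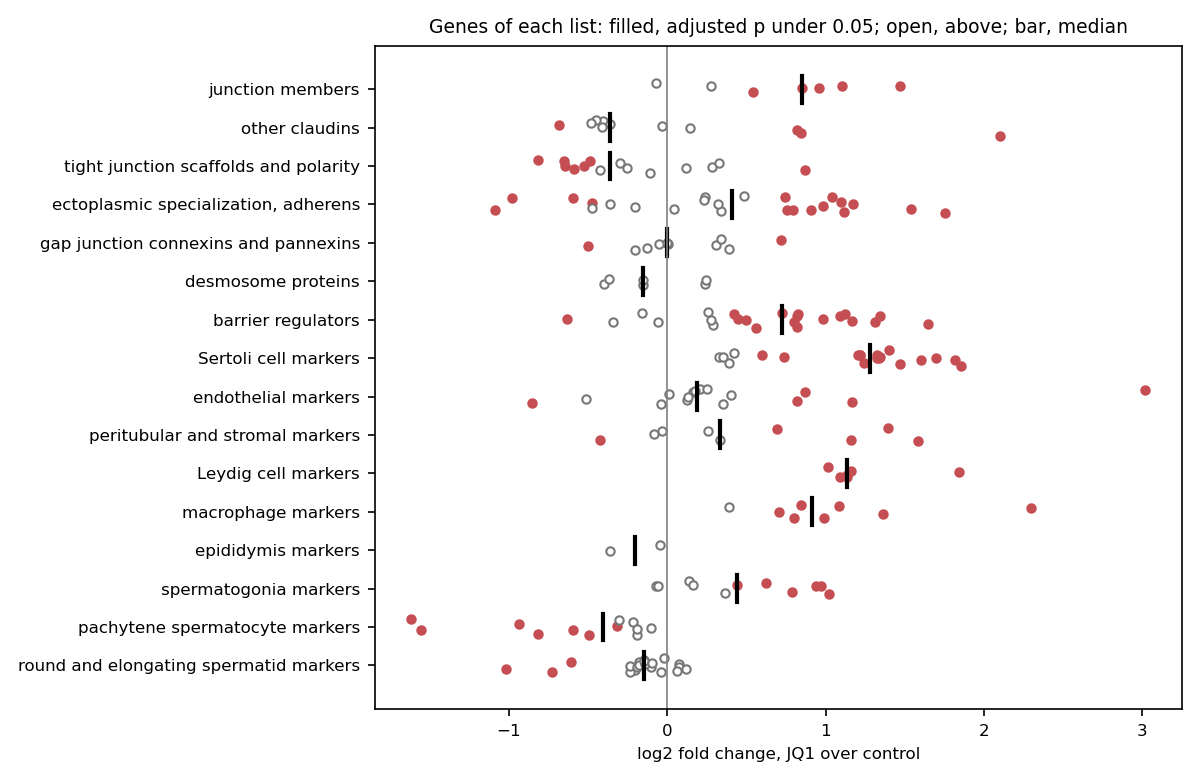
Log2 fold change of JQ1 over control (horizontal axis) for the tested genes of each list, relative to all probes. Filled points passed an adjusted p of 0.05, open points did not, and bars are medians. The median was 0.85 for the junction members, -0.36 for the scaffolds and 0.41 for the ectoplasmic specialization and adherens junction list. It was 0.72 for the regulators and 1.28 for the Sertoli cell markers. At equal Sertoli marker means the median of all genes was -1.14.

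**Figure D4:**
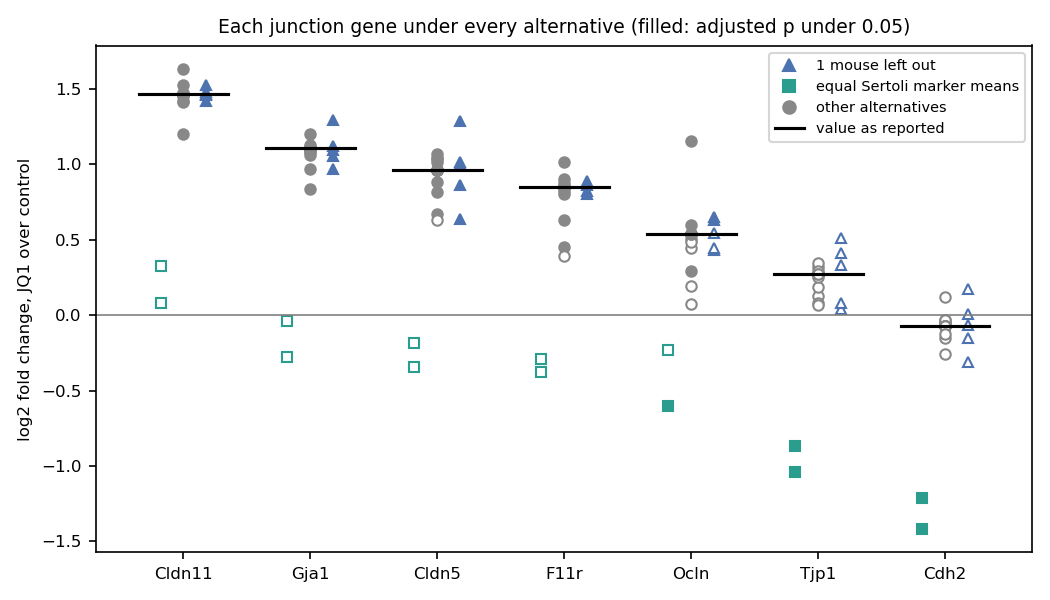
Log2 fold change of JQ1 over control (vertical axis) of each kept junction gene under each of 22 other settings (21 for Ocln), with black bars at the values reported. Filled symbols passed an adjusted p of 0.05. Cldn11 and Gja1 passed as higher in every setting except the 2 at equal Sertoli marker means, shown as squares, where Gja1 lay below 0.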

How the data were processed

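Testis RNA of 5 mice was measured on 6 one-colour arrays. The authors deposited per probe a raw signal intensity with its detection p-value, and a background-corrected, normalized intensity in which about 30.3% of values lie below 0. Their methods average the technical pair and set negatives to 1. The scanner software was not given in the sources used here.

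From the deposited raw intensity, background was corrected by normexp with negative-control values inferred from detection p-values (offset 16), followed by quantile normalization and log2 transformation in limma 3.58.1 (R 4.3.3). Control mouse 1 counted as detected where either array was. lmFit and eBayes with an intensity trend gave p-values, adjusted over all kept probes. The brightest kept probe stood for a gene. A bound replaces the fold where no array of a group detected the gene. The fit alone was tested on simulated data with independent noise and few changed probes. That simulation did not include background correction or normalization, so it says nothing about those steps. No column was left unassigned (0).

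Of the probes, 34885 had 1 symbol in the platform annotation, 18 several and 10378 none, and 34807 matched a gene ID of GRCm38.p6. Named genes were all members, up to 4 called genes in each direction of a pathway list or its 2 brightest, the 2 brightest of cell type lists (given for Sertoli cells and endothelium), Sox9, Tgfb3 and others not reported here, and nearest profiles. Others were named after their values were seen. Members and lists were chosen with earlier results of these data known. Alternatives covered background, normalization, filter, variance model, replicate block, technical arrays, scaling, probe choice and each mouse left out. The labels number the samples but do not say more about the animals, and the number of mice limits precision.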

Additional observations from a re-analysis of the deposited data

How the results depend on the processing

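At equal Sertoli marker means 0 junction genes passed as higher and 0 were called higher, while 3 passed as lower and 1 was called lower, where 174 of all 11755 genes passed as higher and 9880 as lower. There Cldn5 was at -0.19, F11r at -0.29, Gja1 at -0.038, Ocln at -0.60 and Tjp1 at -0.87. With the same scaling on the authors' intensities, added after seeing the data, 0 passed as higher and 0 were called higher, and 2 passed as lower, both called lower. Cldn5 was then at -0.35, F11r at -0.38, Gja1 at -0.28, Ocln at -0.23 and Tjp1 at -1.04. On the authors' intensities without that scaling 5 were called higher. Raw signal with no correction or normalization, also added later, left 2 passing and 1 called higher, with the median of all genes at -0.11. Without a filter 1 gene, Cldn3, passed as lower (adjusted p = 0.0403 by limma), with a bound of at least 1.05-fold since no JQ1 mouse had a detected signal. Leaving out each mouse in turn gave 4 to 5 passing and 2 to 3 called higher. Cdh2 ranged from -0.31 to 0.17 there, 0.17 without control mouse 2 and 0.0046 without JQ1 mouse 2, and was at 0.12 with the first array of control mouse 1 alone. The replicate block left 4 higher and 2 called, Cldn11 (1.42) and Cldn5 (1.02), while Gja1 at 0.97 passed but was not called, and Ocln did not pass (0.44, adjusted p = 0.12 by limma). The numbers share no animal, and the differences between mice 1 and 2 of the groups correlated at 0.10. The counts of all genes called higher and lower were 991 and 334, and became 429 and 72 without background correction, 632 and 160 with an offset of 50, 1494 and 537 on the authors' intensities, 295 and 149 on raw signal, 16 and 6984 at equal Sertoli marker means, and 87 and 7679 with that scaling on the authors' intensities. The causes were not tested. Signal near background limits Ocln, Tjp1, Cdh2, Cldn3 and Jam3, whose changes rest on little signal. The change of F11r, whose control levels were close to those of Tjp1, was 0.85 with background correction and 0.45 without it.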

Other observations

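Some genes of the other junction lists, outside the 9 members, carried more than 1 kept probe, and these did not always move together. They were picked out after their values were seen. Of the probes of paracingulin (Cgnl1), the brighter fell from 11.20 and 10.94 in the control mice to 10.36, 10.29 and 10.11 in the JQ1 mice, a change of -0.82. The dimmer probe rose from 7.68 and 7.86 to 9.16, 9.30 and 9.56, a change of 1.57 with an adjusted p of 6.28e-07 by limma. Both probes were detected in all 5 mice and neither overlapped between groups. JAM-B (Jam2) was at 0.33 on its brightest probe, which did not pass, and at 1.29 on a dimmer probe, detected in 1 of the 2 control mice, which did. On its other probes, detected in neither control mouse, the bounds were at least 1.82-fold and 1.24-fold higher. Nectin2 was at 1.12 and 0.90 on probes that passed and at -0.01 on another.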
